A study of Mus musculus with 8 samples.

Results

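The genes described here are 10 members of 4 imprinted loci of the mouse, found by symbol among the 55471 Ensembl genes of the deposited tables. Of these, 6 were noncoding RNAs (Meg3, Rian, Mirg, H19, Kcnq1ot1 and Airn) and 4 were the protein-coding genes of the same loci (Dlk1, Igf2, Cdkn1c and Igf2r). They were listed by symbol, with no threshold on a measured value but with earlier results of these data known, and all 10 were found and passed the filter on low counts. RNA was measured in 8 sequencing libraries of spinal motor neurons differentiated from the mouse embryonic stem cell line HBG3, which expresses GFP from the promoter of the motor neuron gene Hb9, taken 3 days after plating. The study captured Lhx1os, a long noncoding RNA, with biotinylated antisense oligonucleotides of 20 nt, to find the RNAs recovered with it. The groups were Input (cell RNA with no probe named in the label), LacZ (control probes against a bacterial mRNA), ODD and EVEN (2 probe sets against Lhx1os). Each group had 2 libraries, replicate 1 and replicate 2, from 2 independent experiments with the same cell line and no further treatment. Nothing in the labels says whether the libraries of 1 experiment came from separate cultures, so the p-values measure the spread between these libraries.

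In an imprinted locus 1 parental chromosome is used and the other is silenced, and many such loci hold a long noncoding RNA made from the chromosome on which the neighbouring coding genes are silent. Kcnq1ot1 and Airn are known as long nuclear RNAs that stay on the chromosome and silence neighbours in cis, including Cdkn1c, a cyclin-dependent kinase inhibitor, and Igf2r, a receptor that clears the growth factor Igf2. H19 is known as an abundant spliced RNA made from the maternal chromosome, opposite to the paternally expressed Igf2, while Meg3, Rian and Mirg come from the maternal chromosome of the locus that makes Dlk1, a membrane ligand of the Notch family, from the paternal one.

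The series is about repeats of low complexity in RNA-RNA contacts, and the longest low-complexity stretch of the noncoding members is therefore shown first. Each was found by dustmasker at level 20 in the longest GENCODE M21 transcript, lies within 1 exon, and is written 5′ to 3′ on the strand of the transcript with its GRCm38 position.
Kcnq1ot1 (chr7:143248430-143248580, minus strand): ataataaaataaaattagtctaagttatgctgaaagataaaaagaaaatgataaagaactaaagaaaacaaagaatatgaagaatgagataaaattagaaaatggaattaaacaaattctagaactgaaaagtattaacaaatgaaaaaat
Meg3 (chr12:109565104-109565221, plus strand): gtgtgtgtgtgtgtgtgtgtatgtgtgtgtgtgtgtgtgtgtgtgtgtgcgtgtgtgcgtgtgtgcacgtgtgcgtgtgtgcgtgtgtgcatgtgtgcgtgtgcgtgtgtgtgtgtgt
Rian (chr12:109648804-109648871, plus strand): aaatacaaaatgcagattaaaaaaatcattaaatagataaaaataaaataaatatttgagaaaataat
H19 (chr7:142578060-142578143, minus strand): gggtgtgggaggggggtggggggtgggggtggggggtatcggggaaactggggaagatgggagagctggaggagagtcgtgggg
Those of Kcnq1ot1 and Rian are rich in A, that of Meg3 is a GT repeat, and that of H19 is rich in G and forms the 5′ end of the gene. Mirg had a G-rich stretch of 57 bases, and the longest run of Airn was 7 bases. The Airn transcript read was 1375 bases long, while the gene spans 118826 bases, so most of that span was not read. The low-complexity share of the transcript was 6.65% in H19, 5.31% in Meg3, 3.59% in Kcnq1ot1, 3.05% in Rian, 2.30% in Mirg and 0.509% in Airn, where the median over 16508 tested genes was 2.20%. All noncoding members except Airn lay above that median, Mirg only slightly. Among the coding members the share was 13.09% in Igf2, 10.63% in Cdkn1c, 6.404% in Dlk1 and 1.519% in Igf2r. A link between this share and the level in the pull-downs was not tested.

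The probes were antisense to Lhx1os, so the longest stretch that each member's transcript shares exactly with Lhx1os on the same strand was also read.
Kcnq1ot1 (chr7:143279869-143279883, minus strand): tgtcctggaactcac
Meg3 (chr12:109561674-109561687, plus strand): ggagaatggagaga
The match in Kcnq1ot1 was 15 bases, a length reached by 5.94% of tested genes and found here in a transcript of 93092 bases. Meg3 shared 14 bases, reached by 9.26% of genes. Rian, Mirg and Dlk1 shared 13 bases, Airn and Igf2r 12, H19 and Igf2 11, and Cdkn1c 10. None of these shared runs was as long as a probe. Only exact runs in the longest transcript of each gene were searched, without the probe sequences, so binding of a probe to a member was not tested.

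Total counts ran from 20515501 to 24628435 in Input and from 7632775 to 12563449 in the 6 pull-down libraries. Lhx1os itself, the target, had 16 to 61 counts in Input and LacZ and 283 to 2239 in ODD and EVEN. Marker levels differed between the experiments. The summed level of 7 motor neuron markers was 177 to 199 CPM (read counts for a fixed number of reads of the library, with library sizes scaled by TMM) in the 4 libraries of replicate 1 and 330 to 350 CPM in those of replicate 2. The 3 oligodendrocyte lineage markers summed to 401 to 580 CPM in replicate 1 and 73.5 to 108 CPM in replicate 2, from Mbp and Sox10, while Mog, a marker of mature oligodendrocytes, had at most 1 count. The fibroblast markers summed to 353 and 120 CPM in Input and to 114 to 270 CPM in the pull-downs. Of these, Pdgfra had the most counts in Input replicate 1 (3603). Replicate 2 of Input stood at 0.120 times replicate 1 for Pdgfra and at 0.422 to 0.573 times for the collagens and Lum. For Mbp and Sox10 it was 0.156 and 0.235 times, so the sum is not a measure of fibroblasts alone. Markers of pluripotent cells, muscle and endoderm summed to under 1 CPM in each library. In such bulk samples, fewer cells of a type and less RNA per cell cannot be told apart.

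Against Input, the mean level in the pull-downs was higher for each noncoding member except H19, and lower for H19 and the coding members. For the mean of LacZ, ODD and EVEN against Input, the quasi-likelihood test of edgeR, adjusted by Benjamini-Hochberg over 16524 genes, called 1 of the 10 members higher, Kcnq1ot1, and 2 lower, Igf2 and H19. Of all genes tested, 8.37% were called higher and 1.79% lower. With the replicate number as a block, 5 members were called higher (Meg3, Rian, Mirg, Kcnq1ot1 and Airn) and 4 lower (Igf2, H19, Dlk1 and Cdkn1c), against 16% and 13.1% of all genes. DESeq2 called 4 members higher (Kcnq1ot1, Meg3, Mirg and Airn) and 3 lower (Igf2, H19 and Dlk1), against 10.6% and 3.69% of genes. The same 4 and 3 were called by edgeR without a filter beyond 1 count, against 7.45% and 2.83% of genes. The median log2 fold change was 1.24 over the 6 noncoding members, -0.52 over the 4 coding members and -0.02 over all genes tested. In 4 members, Kcnq1ot1, Meg3, Mirg and Airn, all pull-down libraries lay above both Input libraries, as 17.7% of genes did. In 4 others, Igf2, H19, Dlk1 and Cdkn1c, all lay below, as 13.5% of genes did.

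**Figure D1:**
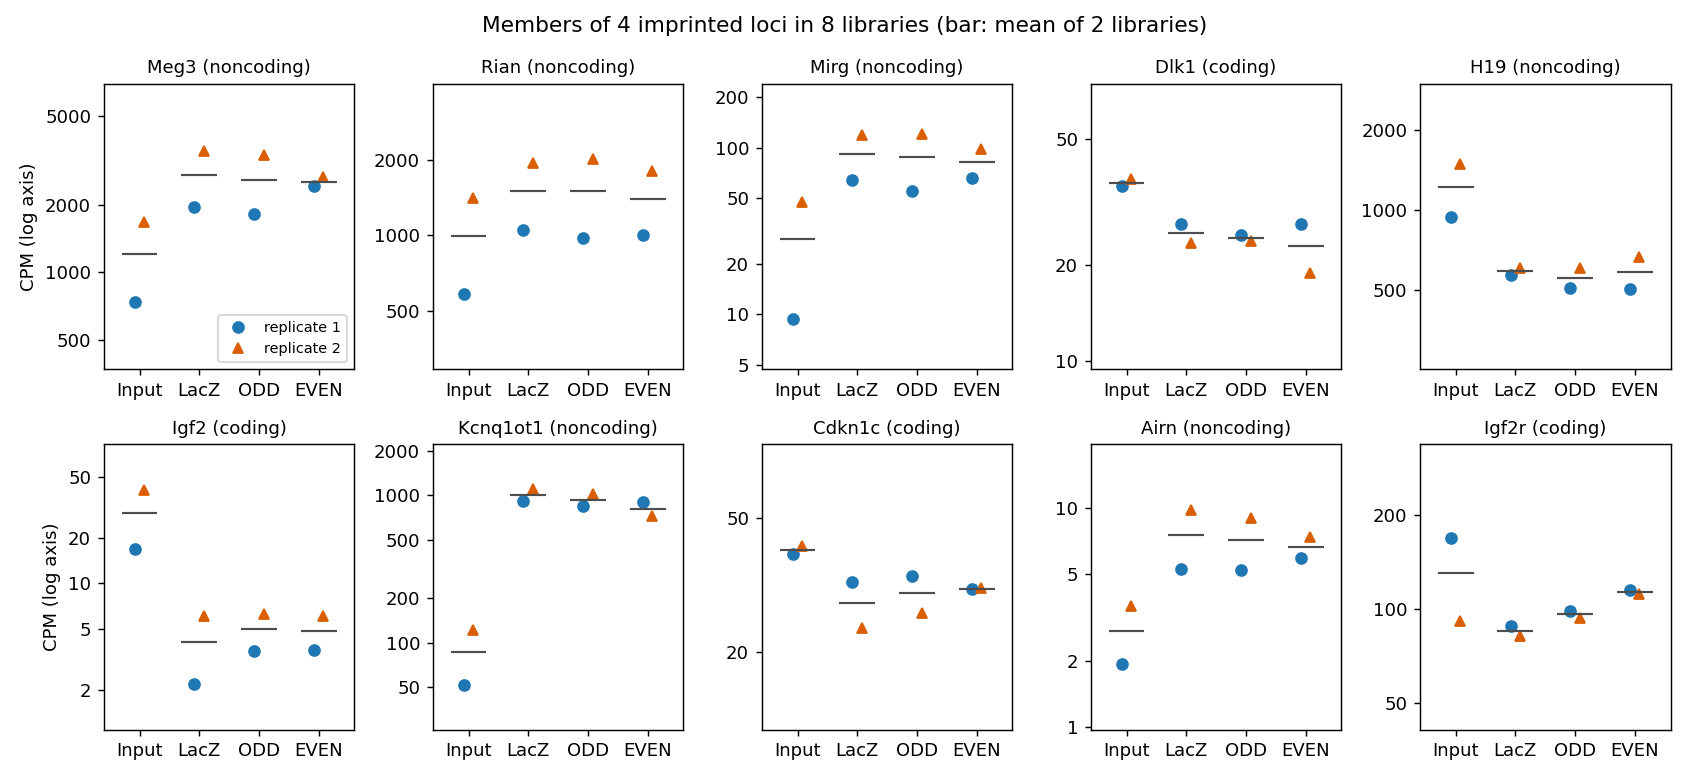
CPM (log axis) of the 10 members in the 8 libraries, with circles for replicate 1, triangles for replicate 2 and a bar at the mean of each group. Kcnq1ot1 lies between 51.3 and 121 CPM in Input and between 722 and 1106 CPM in the pull-downs, while Igf2 falls from 16.8 and 40.9 CPM in Input to between 2.19 and 6.34 CPM.

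Kcnq1ot1 (ENSMUSG00000101609) spans 143203458 to 143296549 of chromosome 7 on the minus strand, antisense to Kcnq1, and is annotated as 1 unspliced exon of 93092 bases. Replicates 1 and 2 of Input held 51.3 and 121 CPM, LacZ 915 and 1106, ODD 851 and 1017.5, and EVEN 902 and 722. The 6 pull-down libraries were close to each other and far above both Input libraries. Over the mean of the pull-downs the log2 fold change was 3.41 (SE 0.39, adjusted p 0.00366 by edgeR), or 10.6-fold. Against the Input of the same replicate the ratio was 16.6 to 17.8 in replicate 1 and 5.97 to 9.15 in replicate 2, and the Input libraries themselves differed 2.35-fold. In the libraries, Kcnq1ot1 took 0.00506% and 0.0121% of the counts in Input and 0.0695% to 0.114% in the pull-downs. The host gene Kcnq1, a potassium channel, had 0 or 1 counts in each library.

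Cdkn1c (ENSMUSG00000037664), the growth inhibitor of the same locus, lies 161789 bases from Kcnq1ot1 on the same strand, from 143458339 to 143461050. Input held 38.98 and 41.2 CPM, LacZ 32.4 and 23.6, ODD 33.5 and 26.1, and EVEN 30.7 and 31.01. All pull-down libraries lay under both Input libraries, by a smaller step than the rise of Kcnq1ot1. Its log2 fold change was -0.44 (SE 0.17, adjusted p 0.162 by edgeR), and -0.45 with an adjusted p of 0.0373 with the replicate block.

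Igf2 (ENSMUSG00000048583), an insulin-like growth factor of the fetus, lies on chromosome 7 from 142650766 to 142666816. Input held 407 and 840 counts, LacZ 17 and 70, ODD 45 and 66, and EVEN 43 and 68, which is 16.8 and 40.9 CPM in Input and 2.19 to 6.34 CPM in the pull-downs. No pull-down library reached 1 in 4 of its own Input, with ratios of 0.131 to 0.217. Over the mean of the pull-downs the log2 fold change was -2.62 (SE 0.44, adjusted p 0.0126 by edgeR), or 6.16-fold lower. This was the lowest log2 fold change of all 16524 genes in this fit, and the third lowest with the replicate block (-2.58). In the fit without the block it was -1.85 without Input replicate 2, and the call was lost.

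H19 (ENSMUSG00000000031), the spliced RNA downstream of Igf2, lies 72622 bases from it, from 142575529 to 142578143 on the same minus strand. Input held 938 and 1495 CPM, LacZ 573 and 607, ODD 508 and 607, and EVEN 506 and 669. The pull-down libraries lay in a narrow band under both Input libraries. H19 fell by 1.07 on the log2 scale (SE 0.21, adjusted p 0.0200 by edgeR), and the ratio to its own Input was 0.406 to 0.610. The call was lost without Input replicate 2 (-0.71, adjusted p 0.129), without LacZ replicate 1 (adjusted p 0.0509) and without LacZ replicate 2 (adjusted p 0.0536), and it did not pass in limma on log2(FPKM + 1), where the adjusted p was 0.0787. H19 and Igf2 moved alike over the 8 libraries, with a Pearson correlation of log2 CPM of 0.95, given as a description of libraries that share 2 experiments. The summed fibroblast markers were at 209 to 270 CPM in the pull-downs of replicate 1 against 353 in its Input, and at 114 to 194 CPM in those of replicate 2 against 120, and their part in the result was not tested.

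Meg3 (ENSMUSG00000021268), the first and most abundant RNA of the maternal transcripts on chromosome 12, spans 109541001 to 109571726 of the plus strand, 77664 bases beyond Dlk1. Input held 741 and 1674 CPM, LacZ 1955 and 3485, ODD 1825 and 3354, and EVEN 2420 and 2656. All pull-down libraries exceeded both Input libraries, and each was 1.59 to 3.27 times its own Input. The log2 fold change was 1.11 (SE 0.42, adjusted p 0.158 by edgeR). With the replicate block it was 1.19 (SE 0.21, adjusted p 0.00600). Without the block it was 0.64 without Input replicate 1 and 1.81 without Input replicate 2, uncalled in both.

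Rian (ENSMUSG00000097451), the next RNA downstream and host of small nucleolar RNAs, lies from 109603940 to 109661716. Input held 585 and 1410 CPM, LacZ 1056 and 1944, ODD 975 and 2025, and EVEN 1002 and 1807. The groups overlapped, because Input replicate 2 lay above the pull-downs of replicate 1. Within each replicate every pull-down was above its Input, by 1.28 to 1.81 times. The log2 fold change was 0.56 (SE 0.48, adjusted p 0.550 by edgeR) and 0.61 (SE 0.13, adjusted p 0.0129) with the replicate block. Without the block it lay between 0.0496 (without Input replicate 1) and 1.32 (without Input replicate 2) when 1 library was left out.

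Mirg (ENSMUSG00000097391), the host of a large cluster of microRNAs, lies from 109729764 to 109749460. Input held 229 and 968 counts, LacZ 493 and 1362, ODD 679 and 1256, and EVEN 774 and 1088. In CPM this was 9.43 and 47.1 in Input and 54.6 to 121 in the pull-downs, without overlap. Its log2 fold change was 1.62 (SE 0.66, adjusted p 0.192 by edgeR) and 1.86 (SE 0.32, adjusted p 0.00494) with the block. Without the block it was 0.87 without Input replicate 1 and 3.19 without Input replicate 2 (adjusted p 0.0561). The ratio to its own Input was 5.79 to 6.94 in replicate 1 and 2.07 to 2.56 in replicate 2.

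The RNAs of this locus shared a difference between the experiments. In Input, replicate 2 exceeded replicate 1 by 2.26 times for Meg3, 2.41 times for Rian and 5.00 times for Mirg, and in the pull-downs by 1.10 to 1.84, 1.804 to 2.08 and 1.49 to 2.21 times. The motor neuron markers as a sum were also higher in replicate 2. Of these, Mnx1 was not higher for its library size in the pull-downs, nor was Lhx3 in LacZ and EVEN. The part of the markers in the difference of these RNAs was not tested. Dlk1 did not share the difference between the experiments, at 1.05 times in Input. The Pearson correlation of log2 CPM over the 8 libraries was 0.98 between Meg3 and Mirg and 0.88 between Meg3 and Rian, given as a description.

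Dlk1 (ENSMUSG00000040856), the coding gene of the locus, lies from 109452823 to 109463336. Input held 35.6 and 37.4 CPM, LacZ 27.1 and 23.6, ODD 24.9 and 23.9, and EVEN 27.1 and 18.9. All pull-down libraries were under both Input libraries. The log2 fold change was -0.59 (SE 0.17, adjusted p 0.0726 by edgeR), with an adjusted p of 0.0122 with the replicate block. Without the block it lay between -0.69 and -0.52 when 1 library was left out.

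Airn (ENSMUSG00000078247) spans chromosome 17, plus strand, 12741311 to 12860136, and overlaps the 5′ part of Igf2r, on the minus strand from 12682406 to 12769664, over 28354 bases. The libraries were made with a stranded kit, but whether strand was used in counting was not stated in the labels, so reads of the overlap cannot be assigned with certainty. The deposited length of Airn was 4623 bases, while the gene spans 118826 bases, so reads from most of that span may not have been counted. Airn had few counted reads: Input held 47 and 73 counts, LacZ 41 and 113, ODD 65 and 94, and EVEN 70 and 82. In CPM it was 1.94 and 3.56 in Input and 5.23 to 9.84 in the pull-downs, without overlap. The log2 fold change was 1.38 (SE 0.40, adjusted p 0.0822 by edgeR), with an adjusted p of 0.00192 with the replicate block.

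Igf2r (ENSMUSG00000023830), is the receptor that carries Igf2 to lysosomes. Input held 169 and 92.0 CPM, LacZ 88.4 and 82.3, ODD 98.9 and 93.7, and EVEN 115 and 112. The pull-downs lay near or above Input replicate 2 and well under Input replicate 1, so the groups overlapped. The log2 fold change was -0.42 (SE 0.22, adjusted p 0.301 by edgeR), and it turned to 0.08 without Input replicate 1. Without Input replicate 2 it was -0.80 and was called (adjusted p 0.0402). This was the single member not called with the replicate block (adjusted p 0.128).

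**Figure D2:**
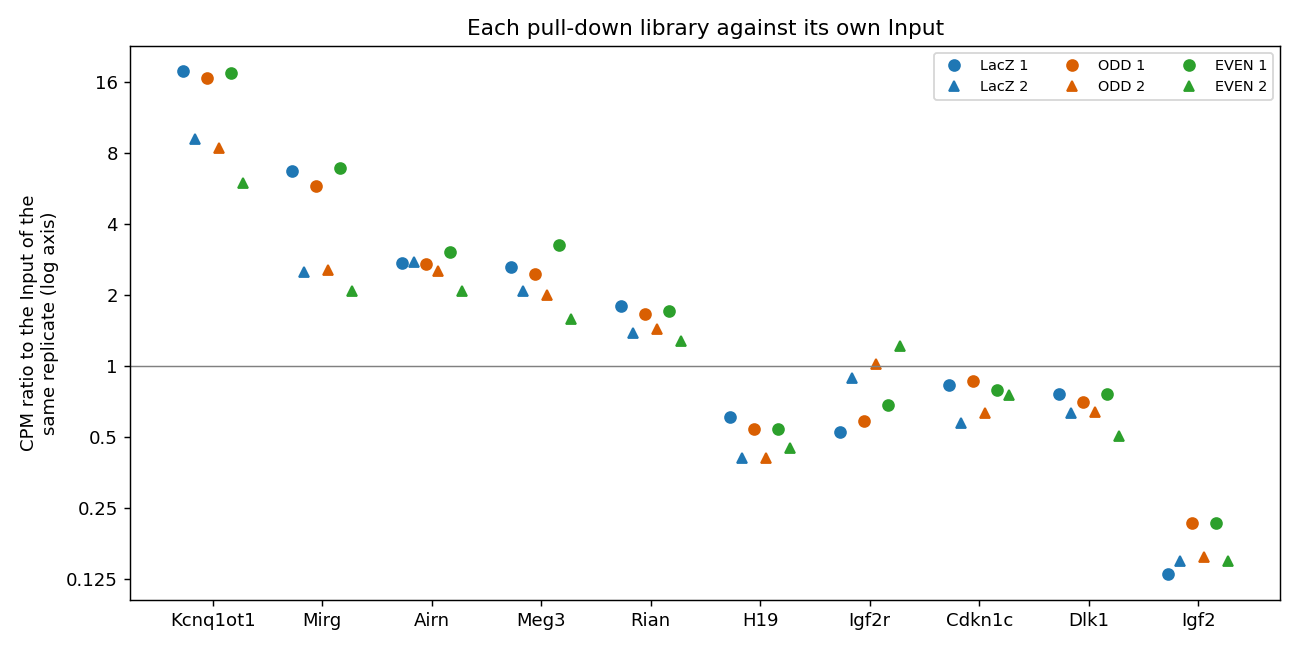
Ratio of CPM in each pull-down library to the Input of the same replicate (log axis), with a line at 1, circles for replicate 1 and triangles for replicate 2. The probe sets lie close together within a replicate. For Kcnq1ot1, Mirg, Meg3, Rian, H19, Cdkn1c and Dlk1 replicate 1 lies above replicate 2 for each probe set. For Igf2r it lies under replicate 2 for each, and for Airn and Igf2 the order differs between probe sets.

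The same pattern stood in each kind of pull-down, the LacZ control included. Kcnq1ot1 was called higher in LacZ (3.55, adjusted p 0.00476), ODD (3.44, adjusted p 0.00580) and EVEN (3.24, adjusted p 0.00855) by edgeR, where 6.98%, 6.46% and 5.37% of genes were called higher. The EVEN call was lost without Input replicate 1 (adjusted p 0.0622). Igf2 was called lower in LacZ (-2.77, adjusted p 0.0474), where 0.43% of genes were, and its values were -2.54 in ODD (adjusted p 0.0645) and -2.56 in EVEN (adjusted p 0.0675). The LacZ call of Igf2 was lost without any 1 of the 8 libraries (adjusted p 0.0560 to 0.176). No member was called lower by this fit in ODD or EVEN, where 0.375% and 0.284% of genes were. With the replicate block, Meg3, Rian, Mirg, Kcnq1ot1 and Airn were called higher in each of LacZ, ODD and EVEN, where 12.7%, 12.6% and 12.8% of genes were. Igf2 and H19 were then called lower in each, and Dlk1 in ODD and EVEN, where 7%, 6.55% and 6.41% of genes were. The block gave Igf2 an adjusted p of 0.000505 in ODD and 0.000707 in EVEN, and H19 0.00441 and 0.00629. DESeq2 also called Igf2 and H19 lower in ODD and EVEN, where it called 1.28% and 1.26% of genes lower. The 3 comparisons share the Input libraries and are not independent.

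The comparison of the Lhx1os probes with the control probes asked whether any of these RNAs was recovered with Lhx1os beyond the control. With ODD and EVEN averaged and set against LacZ, no member passed the test of edgeR, nor did any of the 16524 genes (0 called). Lhx1os itself, the captured RNA, had the highest log2 fold change of all genes in this comparison, 5.42 (SE 1.10, unadjusted p 0.00172), and was not called either (adjusted p 1.00 after rounding). A miss of the threshold here therefore does not show that a member did not differ. An unadjusted p under 0.05 was found for 218 genes, none of them a member, and the lowest unadjusted p of a member in this edgeR fit was 0.261, for Igf2r. DESeq2 called 2 genes and edgeR without the filter 81, none of them a member. The member differences ran from -0.21 (SE 0.33) for Kcnq1ot1 to 0.29 (SE 0.24) for Igf2r on the log2 scale. Meg3 was at -0.09 (SE 0.41), Mirg at -0.11 (SE 0.63), H19 at -0.04 (SE 0.23) and Igf2 at 0.22 (SE 0.55). The approximate 95% interval, from the SE and the residual degrees of freedom of edgeR, ran from -1.60 to 1.38 for Mirg, -1.06 to 0.89 for Meg3, -0.99 to 0.56 for Kcnq1ot1, -1.09 to 1.53 for Igf2 and -0.59 to 0.50 for H19. These intervals are from the fit without the replicate block. In the fit with it, the SE was 0.30 for Mirg, 0.21 for Meg3, 0.27 for Kcnq1ot1, 0.22 for Igf2 and 0.14 for H19. No member was called there either. Between ODD and EVEN the largest member difference was -0.23 (SE 0.27), for Igf2r, without the block.

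**Figure D3:**
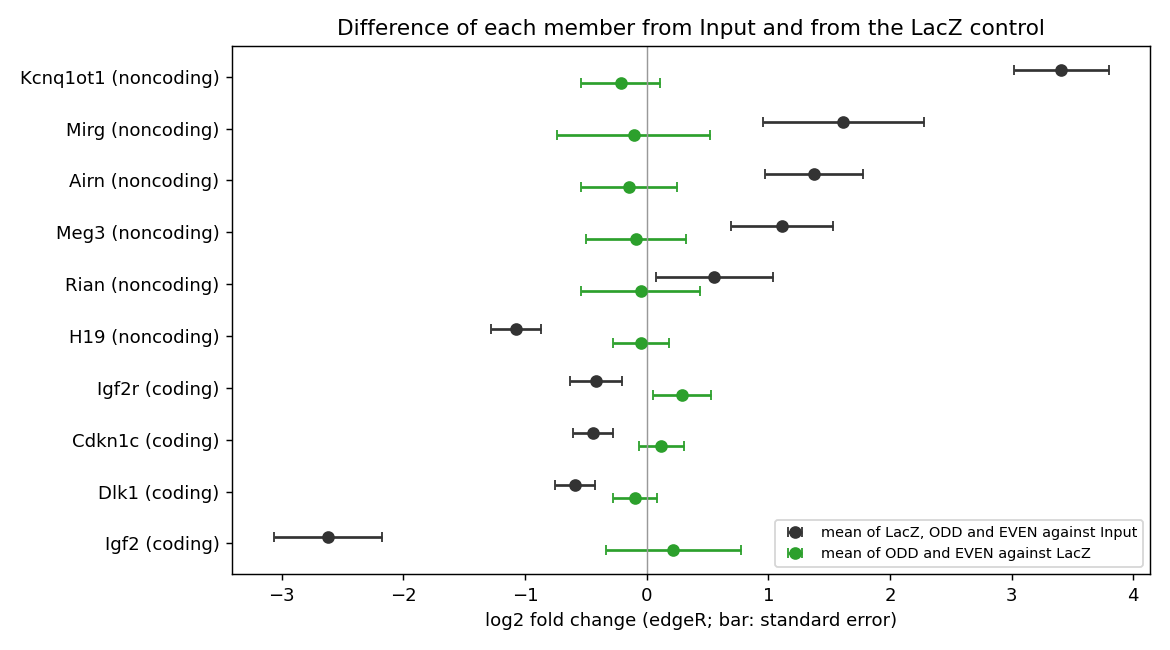
Log2 fold change with its standard error from edgeR for each member, in black for the mean of the 3 pull-downs against Input and in green for ODD and EVEN averaged against LacZ. The black points run from -2.62 for Igf2 to 3.41 for Kcnq1ot1, while the green points lie between -0.21 and 0.29.

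Each noncoding RNA was then set against the coding gene of its locus within a library, where library size cancels. The log2 ratio was tested with limma over 1132 pairs, made of each long noncoding gene with its nearest coding gene and the 6 member pairs. For the mean of the pull-downs against Input, 5 of the 6 member pairs were called higher, and so were 23% of all pairs. With the replicate block 6 of 6 were called higher, and 33% of all pairs were. The 3 pairs with Dlk1 share their denominator. The median change was 0.42 over all pairs.

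In reads of Kcnq1ot1 for each read of Cdkn1c, Input stood at 1.32 and 2.93, LacZ at 28.3 and 46.9, ODD at 25.4 and 38.9, and EVEN at 29.4 and 23.3. The change was 3.98 on the log2 scale (SE 0.37, adjusted p 1.0e-04 by limma). For H19 reads over Igf2 reads, Input stood at 55.9 and 36.5, LacZ at 261 and 99.6, ODD at 140 and 95.7, and EVEN at 139 and 109. It rose by 1.50 (SE 0.37, adjusted p 0.0165 by limma), as Igf2 fell further than H19 did. The call was lost without Input replicate 1 (adjusted p 0.0692) and without Input replicate 2 (adjusted p 0.144).

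On chromosome 12, Meg3 gave 20.8 and 44.8 reads for each Dlk1 read in Input and 72.2 to 148 in the pull-downs, a rise of 1.78 (SE 0.42, adjusted p 0.0134 by limma). Mirg gave 0.265 and 1.26 reads in Input and 2.19 to 5.18 in the pull-downs, a rise of 2.56 (SE 0.60, adjusted p 0.0132 by limma). In Input replicate 1 Mirg was thus the rarer RNA of that pair, and in each pull-down it was the more frequent one. Rian gave 16.4 and 37.7 reads in Input and 37.0 to 95.7 in the pull-downs, which overlapped, and its change of 1.21 (SE 0.50) had an adjusted p of 0.117 by limma and 7.95e-05 with the block. Airn gave 0.0115 and 0.0386 reads for each Igf2r read in Input and 0.0515 to 0.120 in the pull-downs, a rise of 1.69 (SE 0.47, adjusted p 0.0258 by limma). Without Input replicate 1 the pairs Meg3 with Dlk1 (1.23, adjusted p 0.200), Mirg with Dlk1 (1.44, adjusted p 0.207) and Airn with Igf2r (0.84, adjusted p 0.367) were no longer called. The Airn pair was also lost without EVEN replicate 1 (adjusted p 0.0530) or EVEN replicate 2 (adjusted p 0.0613).

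**Figure D4:**
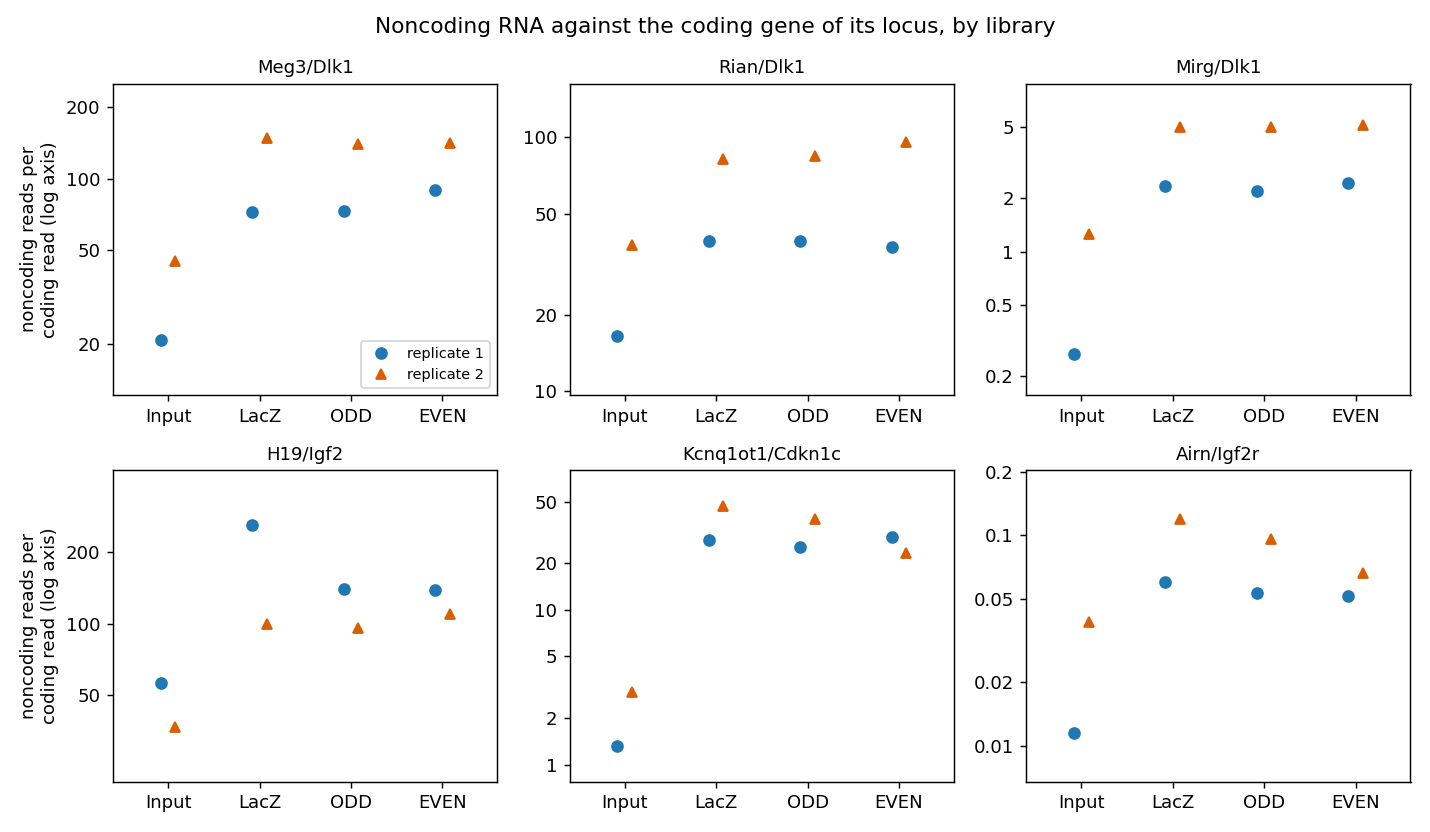
Reads of the noncoding RNA for each read of the coding gene of its locus (log axis) in the 8 libraries, with circles for replicate 1 and triangles for replicate 2. Pull-down and Input values overlap for Rian with Dlk1 and do not overlap for the other pairs.

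Of ODD and EVEN against LacZ, limma called 0 of the 1132 pairs, and 1 with the replicate block, which was no member pair. The member pairs ran from -0.41 (SE 0.40) for H19 with Igf2 to 0.04 (SE 0.53) for Rian with Dlk1.

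Among 1127 long noncoding genes tested, the median log2 fold change in the mean of the pull-downs against Input was 0.33, and 169 rose and 3 fell by edgeR's test. H19 was 1 of those 3 and had the fourth lowest value of the class. Kcnq1ot1 ranked 46 from the top, Mirg 181, Airn 217, Meg3 270 and Rian 458. Of the 22 long noncoding genes of 10000 bases or more, which include Kcnq1ot1, 8 rose. Of the 314 with 1 merged exon, which also include it, 83 rose, and of the 813 with more than 1, 86 rose. Among 13455 coding genes the median was -0.09, and 168 rose and 291 fell. Igf2 had the lowest value of the coding genes, while Dlk1 ranked 1064, Cdkn1c 1994 and Igf2r 2211 from the bottom. The class TEC, loci that still await experimental evidence, had a median of 2.67, with 931 of 1355 genes called higher.

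**Figure D5:**
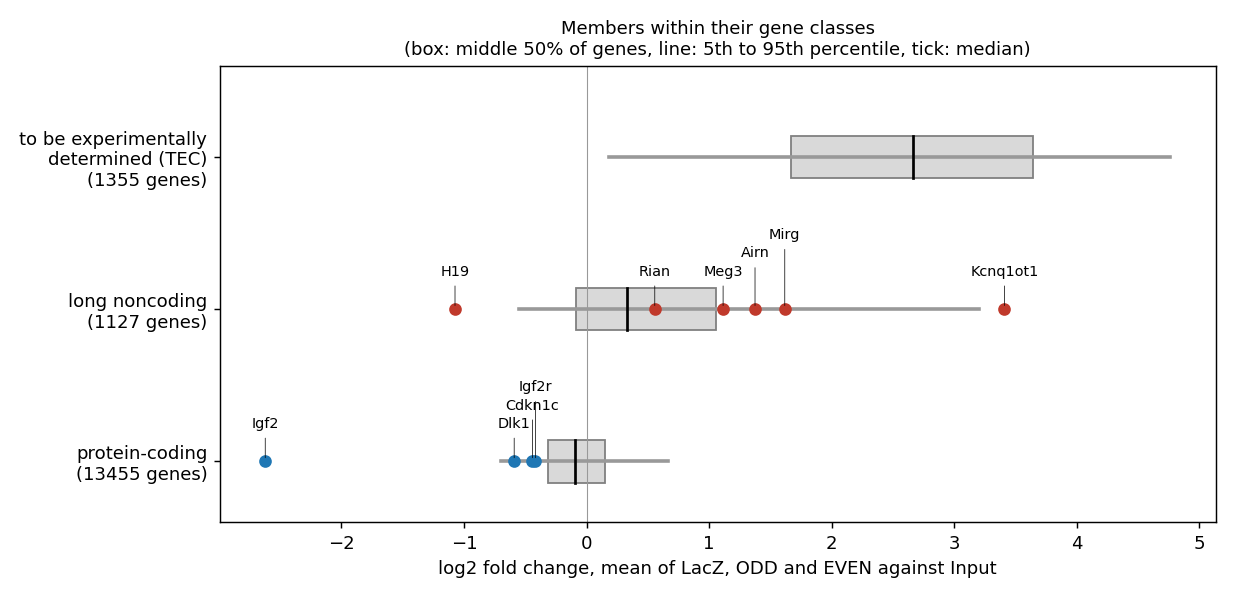
Log2 fold change of the mean of the pull-downs against Input for coding genes, long noncoding genes and TEC loci, with a box for the middle 50% of genes, a line from the 5th to the 95th percentile and a tick at the median. Among the members, Kcnq1ot1 lies above the 95th percentile of its class (3.202), while H19 and Igf2 lie under the 5th percentile of theirs (-0.55 and -0.70).

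The genes whose log2 CPM followed the members most closely over the 8 libraries were named as a description, since all points share the same libraries. For Kcnq1ot1 these were the TEC loci Gm47624 and Gm43072 (both r = 1.00 after rounding), for Meg3 the TEC loci Gm42798 (r = 1.00) and Gm45074 (r = 0.99), and for Airn the TEC locus Gm37551 (r = 1.00) and the transcript 3110039I08Rik (r = 0.99). For Rian they were AC149090.1 and Snhg11, both r = 1.00, for Mirg the coding genes Ring1 and Ppox, both r = 0.99, and for H19 the coding genes Gng2 and Ly6e, both r = 0.99. The nuclear RNA Malat1 rose by 1.29 (SE 0.28, adjusted p 0.0322 by edgeR), close to Meg3 and Airn, and Neat1, of nuclear paraspeckles, was at 0.98 (SE 0.28, adjusted p 0.0759).

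Per length, in FPKM, the order of the members in Input was H19 at 492 ± 164 (SD, n = 2), Meg3 at 66.5 ± 36.9, Rian at 31.1 ± 18.5, Cdkn1c at 19.5 ± 0.980 and Igf2r at 13.9 ± 5.63. Dlk1 at 6.41 ± 0.299, Igf2 at 5.02 ± 3.02, Mirg at 3.87 ± 3.67, Kcnq1ot1 at 0.921 ± 0.534 and Airn at 0.591 ± 0.252 followed. Across the 2 libraries the ranges separated H19 from Meg3, Cdkn1c from Igf2r and Igf2r from Dlk1, and overlapped for the other neighbours in this order. Within each Input library every member lay above the next, with 2 exceptions. Rian lay under Cdkn1c in replicate 1, and Dlk1 under Igf2 in replicate 2. In the pull-downs Kcnq1ot1 reached 11.1 ± 1.60 FPKM in LacZ, 10.1 ± 1.42 in ODD and 8.54 ± 1.52 in EVEN, above Dlk1 (4.58 ± 0.401, 4.32 ± 0.0556 and 3.98 ± 1.09). H19 stayed first in each group by mean level. The deposited lengths of Rian (31981 bases) and Airn (4623 bases) differ from the merged exons of GENCODE M21 (18234 and 3597 bases), so for these the authors' exon model was another one.

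Small RNA genes inside the noncoding members were read separately, since several members are known as hosts of microRNAs or small nucleolar RNAs. By position in RefSeq's GRCm38 table, Mirg held 26 mature microRNAs, Rian 6, Meg3 3 and H19 2. Those of H19 are shown with 1 pair from Mirg that shares a seed, with the seed (bases 2 to 8) in capitals.
mmu-miR-675-5p, in H19: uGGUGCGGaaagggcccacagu
mmu-miR-675-3p, in H19: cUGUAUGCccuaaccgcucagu
mmu-miR-453, in Mirg: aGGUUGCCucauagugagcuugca
mmu-miR-496a-5p, in Mirg: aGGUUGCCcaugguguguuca
In the count table all same-strand small RNA genes within Meg3 (4), Rian (17), Mirg (14) and H19 (1) had 0 counts in each library. The labels do not say how reads shared by a host and a small RNA gene were assigned, so a count of 0 does not show that these RNAs were absent. Inside Airn, 2 genes named after their values were seen had counts: the small RNA gene Gm23833 had 0 counts in both Input libraries and 1 to 8 in the pull-downs, and the pseudogene Gm16574 had 1 and 1 in Input and 4 to 10 in the pull-downs.

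Among the other genes of the same loci, 0 were called higher and 1 lower, beside 8.37% and 1.79% of all genes. Of 5 neighbours of Dlk1, 0 were called higher or lower by edgeR (median -0.20), with Wars, a tRNA synthetase, at -0.28 (SE 0.12), Begain at -0.20 (SE 0.23) and Wdr25 at 0.20 (SE 0.22). Of 7 neighbours of Igf2 and H19, 4 were tested and 0 called (median -0.25), among them Mrpl23 of the mitochondrial ribosome at -0.15 (SE 0.19), Lsp1 at -0.34 (SE 0.37) and Th, the enzyme of dopamine synthesis, at 1.08 (SE 0.56). Of 13 neighbours of Kcnq1ot1, 7 were tested (median 0.04), and Dhcr7, an enzyme of cholesterol synthesis, fell by 0.84 (SE 0.11, adjusted p 0.00590 by edgeR). The most abundant of these, Nap1l4, Cd81 and Osbpl5, were at -0.06 (SE 0.15), -0.87 (SE 0.36) and 0.04 (SE 0.23). With the replicate block Cars, a tRNA synthetase, was called higher and Cd81 and Dhcr7 lower, and no gene of the other 3 neighbour lists was, beside 16% and 13.1% of all genes. Of 9 neighbours of Igf2r, 5 were tested and 0 called (median -0.11), with Tcp1 at 0.19 (SE 0.14), Acat2 at -0.25 (SE 0.11) and Wtap at -0.11 (SE 0.13).

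Imprinted genes of other loci are given beside the same shares, 8.37% of all genes called higher and 1.79% lower. Of 3 noncoding RNAs from other imprinted loci, Nespas, antisense to Gnas, rose by 1.50 (SE 0.22, adjusted p 0.00711 by edgeR). Snhg14, the long RNA antisense to Ube3a, was at 0.67 (SE 0.31, adjusted p 0.250) and Peg13 at -0.29 (SE 0.42). With the replicate block, 16% of all genes were called higher and 13.1% lower. Snhg14 (adjusted p 0.00592 by edgeR) was then also called higher and Peg13 (adjusted p 0.0420) lower. Of 34 coding genes tested, 0 rose and 1 fell (median -0.07), which was Nnat, a membrane protein of developing neurons, by 0.97 (SE 0.16, adjusted p 0.0118 by edgeR). The most abundant, Peg3, Gnas and Peg10, were at 0.29 (SE 0.21), -0.23 (SE 0.15) and -0.58 (SE 0.33). With the block 1 of the 34, Ppp1r9a, was called higher and 5, Peg10, Mest, Ndn, Nnat and Blcap, lower. The share called higher was under the 16% of all genes, and the share called lower was near the 13.1%.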

How the data were processed

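The data were RNA-seq of 8 libraries, 2 in each of 4 groups. The authors deposited raw counts (whole numbers) for each Ensembl gene, FPKM values and gene lengths. The deposited FPKM equalled the count over the deposited length and the column total (largest relative difference 6.66e-14), so both hold 1 measurement. Per the submitters' processing notes, cutadapt 3.2, Bowtie2 2.4.2, Picard and HTSeq 0.13.5 were used with GRCm38, and their role, order and strand setting are not stated there. Libraries were made with a stranded total RNA kit after removal of ribosomal RNA, per the labels' protocols. Of the 55471 genes, 55230 matched GENCODE M21 on GRCm38, which gave positions and transcripts, and 99.11% of these had the deposited length. The other identifiers held at most 0.00458% of a library's counts.

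Gene counts went through edgeR 4.0.16 under R 4.3.3 (quasi-likelihood test, TMM, default filter by group, 16524 genes, group as the only term over all libraries, two-sided p-values with Benjamini-Hochberg adjustment, threshold 0.05). Log2 ratios of noncoding to coding CPM (prior count 2) were tested with limma 3.58.1 over 1132 pairs. Both were tested on simulated data. The labels give the replicate as a batch of 2 independent experiments, so the numbers pair the libraries, and deviations of same-numbered libraries correlated with r from 0.517 to 0.719. Replicates of a group differed beyond sampling noise (chi-square per degree of freedom 31.5 to 61.5). Depth limits Airn and Igf2 most (17 to 113 counts in LacZ). The intervals given rest on the spread between libraries in the edgeR fit, from reads without molecular identifiers.

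The members were listed by symbol, with no threshold on a measured value, and they, the lists and the tests were chosen with earlier results of these data known. The 10 members were always named. From each list of neighbours and other imprinted genes, those past the threshold were named and, where under 3 passed, the 3 of highest mean CPM. For each noncoding member, the 2 genes of highest correlation were named. Alternatives were RLE and total-size scaling, DESeq2 1.42.0, no filter beyond 1 count, a filter of 50 counts in 2 libraries, the replicate block, only the groups compared, limma on log2(FPKM + 1) and log2(FPKM + 0.1), another prior count, and leaving out each library.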

Additional observations from a re-analysis of the deposited data

How the results depend on the processing

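With the replicate number as a term in the fit (replicate block), counts of genes called against Input moved from 1224 to 3249 (LacZ), 1130 to 3169 (ODD), 935 to 3182 (EVEN) and 1679 to 4819 (mean of the pull-downs), and 1 pair in place of 0 was called for ODD and EVEN against LacZ. The block removed no call of a member. Over all alternatives other than leaving out a library, 54 values of members and pairs gained a call, from the block, DESeq2 or the absence of a filter, and 9 lost one. In the same order, no filter beyond 1 count gave 2118, 2064, 1860 and 2898 genes and 81 for ODD and EVEN against LacZ, the filter of 50 counts 565, 535, 494 and 786 genes and 115 in place of 272 pairs, and limma on log2(FPKM + 1) without a filter 571, 253, 12 and 969. DESeq2 gave 1452 genes in EVEN and 2 for ODD and EVEN against LacZ. With the groups compared alone, 709 genes were called in ODD and 477 in EVEN, and limma on log2(FPKM + 1) called 440 in EVEN. For the mean of the pull-downs that set equals all libraries, so it has no value of its own. The cause was not tested.

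Leaving out 1 library at a time, genes called numbered 214 to 1004 for LacZ, 132 to 895 for ODD, 0 to 737 for EVEN (0 without Input replicate 1), 289 to 1325 for the mean of the pull-downs and 0 to 3 for ODD and EVEN against LacZ. Pairs called ranged from 89 to 266, and from 0 to 1 for ODD and EVEN against LacZ. Directions that turned were all of uncalled values. Against Input, the lowest and highest values of Rian were -0.037 and 1.35 for ODD, with -0.015 and 1.25 for EVEN. Those of Igf2r were -0.82 and 0.059 for ODD, with -0.59 and 0.29 for EVEN, while over the mean of the pull-downs they were -0.80 and 0.078. For ODD and EVEN against LacZ, Meg3 ranged from -0.44 to 0.39, Rian from -0.42 to 0.46, Mirg from -0.49 to 0.41, Dlk1 from -0.23 to 0.026, H19 from -0.15 to 0.053, Igf2 from -0.31 to 1.16, Cdkn1c from -0.093 to 0.37 and Airn from -0.51 to 0.38. In the same comparison the ratio to Dlk1 ranged from -0.47 to 0.56 for Meg3, -0.49 to 0.58 for Rian and -0.55 to 0.55 for Mirg, and the ratios ranged from -1.08 to 0.25 for H19 with Igf2, -0.71 to 0.019 for Kcnq1ot1 with Cdkn1c and -0.88 to 0.10 for Airn with Igf2r.

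The rise of Kcnq1ot1 over the mean of the pull-downs was called in all 9 other settings (2.52 to 3.48) and without each of the 8 libraries (2.91 to 4.15). Igf2 was also lost in limma without a filter (adjusted p 0.0598), and its call in LacZ in 4 settings. The call of Kcnq1ot1 in EVEN was lost in that fit too (adjusted p 0.0523). H19 was lost in all 3 limma settings on FPKM (adjusted p 0.0685 to 0.196). A library left alone in its group was assumed to vary like the others.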
